A study of Mus musculus with 4 samples.

Results

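The 42 genes described here encode the kinases, cyclins and phosphatases that drive mitosis, the spindle checkpoint and the proteins of the centromere and mitotic chromosome, and they were taken by their symbols from an expression table of 54446 mouse genes. All 42 were found, and all 42 were above 0 FPKM (sequenced fragments divided by exon length and by library size) in all 4 libraries, as were 17787 genes in all. The libraries came from mammary gland cells of wild type C57BL/6 mice, whose age the labels do not give. The cells were sorted by FACS, labelled basal cell or luminal cell, grown in Matrigel as a 3D culture and given either DMSO, the solvent control, or 100 μM baicalin, a flavonoid glucuronide from the root of Scutellaria baicalensis. The result was 1 library each of basal DMSO, basal baicalin, luminal DMSO and luminal baicalin, so no value below has a replicate error and no comparison has a test.

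Entry into mitosis is set by CDK1 with its A- and B-type cyclins, which CDC25 phosphatases switch on and which polo-like and Aurora kinases assist. At the centromere the kinetochore binds spindle microtubules, and the spindle checkpoint (BUB, MAD and TTK proteins) holds back CDC20 and the anaphase-promoting complex until every chromosome is attached, after which separase cuts cohesin and the cell divides. Most of these genes are transcribed late in the cell cycle, and their mRNA is therefore used as a sign of dividing cells. In bulk RNA, fewer dividing cells and less of these mRNAs per cell cannot be told apart.

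Before the results, the cell type labels were set against markers. All 10 basal markers were higher in the luminal-labelled than in the basal-labelled library, under DMSO and under baicalin, and 9 of 10 luminal markers were lower there. The libraries therefore went against their labels, and each is called below by its label only ("basal-labelled", "luminal-labelled"). The libraries held 19356105 to 20648789 fragments, recovered from the steps of the FPKM values, and the least covered member value, that of Spc24 under baicalin in the basal-labelled library, rested on 25 fragments.

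Many late cell cycle genes carry 2 short promoter elements, the CCAAT box and the cell cycle homology region with the core TTTGAA or TTTAAA. The 250 bases before the start site of 6 members are shown so that a reader can see where these letters stand or are absent. From each functional group with a window, the member with the highest mean FPKM was taken among those whose window held a match and had at most 30 bases in annotated exons; this passed over Bub3, with 148 exonic bases of 250. The sequences are from RefSeq (build GRCm38.p6), 5′ to 3′ on the strand of the gene, in lower case with matches to CCAAT, to TTTGAA or to TTTAAA on either strand in capitals (ATTGG and TTCAAA being the reverse complements, and TTTAAA its own). They cover chr9:70421555-70421804 (minus strand) for Ccnb2, chr2:118597961-118598210 (plus) for Bub1b, chr4:118437344-118437593 (minus) for Cdc20, chr3:135212313-135212562 (plus) for Cenpe, chr7:135716380-135716629 (minus) for Mki67 and chr9:22389207-22389456 (minus) for Anln. In the GENCODE annotation 9 bases of the Cdc20 window and 26 of the Cenpe window lay in the first exon of the gene itself, and the other 4 windows were free of annotated exons.
Ccnb2: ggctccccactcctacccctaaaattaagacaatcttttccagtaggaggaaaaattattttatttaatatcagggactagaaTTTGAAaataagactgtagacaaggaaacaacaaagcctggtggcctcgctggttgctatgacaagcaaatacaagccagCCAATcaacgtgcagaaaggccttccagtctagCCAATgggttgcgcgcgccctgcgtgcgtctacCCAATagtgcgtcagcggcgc
Bub1b: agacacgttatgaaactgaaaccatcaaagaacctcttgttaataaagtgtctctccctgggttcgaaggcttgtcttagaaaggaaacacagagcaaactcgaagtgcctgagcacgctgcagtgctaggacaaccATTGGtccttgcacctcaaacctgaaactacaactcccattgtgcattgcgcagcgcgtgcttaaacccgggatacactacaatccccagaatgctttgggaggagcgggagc
Cdc20: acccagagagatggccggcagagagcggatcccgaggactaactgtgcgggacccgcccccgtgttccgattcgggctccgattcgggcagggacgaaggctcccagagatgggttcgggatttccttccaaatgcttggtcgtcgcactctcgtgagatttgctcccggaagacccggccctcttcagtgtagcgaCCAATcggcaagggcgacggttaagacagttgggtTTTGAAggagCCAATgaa
Cenpe: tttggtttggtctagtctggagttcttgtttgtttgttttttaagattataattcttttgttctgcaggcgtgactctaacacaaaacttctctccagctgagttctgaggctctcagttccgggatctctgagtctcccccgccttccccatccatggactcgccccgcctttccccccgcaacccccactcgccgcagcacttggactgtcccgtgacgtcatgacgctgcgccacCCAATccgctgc
Mki67: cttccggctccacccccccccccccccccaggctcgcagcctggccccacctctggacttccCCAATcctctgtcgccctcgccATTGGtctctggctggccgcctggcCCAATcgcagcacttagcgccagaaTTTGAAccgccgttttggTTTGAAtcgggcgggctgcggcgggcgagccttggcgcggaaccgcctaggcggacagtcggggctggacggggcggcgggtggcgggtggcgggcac
Anln: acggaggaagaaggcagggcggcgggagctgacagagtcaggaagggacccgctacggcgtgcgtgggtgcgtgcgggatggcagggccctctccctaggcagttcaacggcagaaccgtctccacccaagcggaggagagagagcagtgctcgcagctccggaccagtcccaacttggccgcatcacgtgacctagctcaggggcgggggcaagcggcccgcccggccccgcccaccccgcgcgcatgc

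The Ccnb2 window held CCAAT 3 times and TTTGAA once, and that of Mki67 held CCAAT 3 times and TTTGAA 2 times. The Cdc20 window held 2 CCAAT around 1 TTTGAA, which ended 13 bases before the start. Bub1b and Cenpe showed 1 CCAAT each upstream, at 113 to 109 and 12 to 8 bases before the start, and each had a further match within 50 bases after it. The Anln window had no match upstream and 2 after the start.

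A RefSeq window of 300 bases, from 250 before to 50 after the start, was matched for 34 of the 42 members, and not for Aurkb, Ccna2, Cdc25c, Spc24, Incenp, Smc4, Tpx2 and Foxm1. CCAAT on either strand stood in 26 of the 34 windows (76.5%) against 37.4% of all 32851 windows, and at least 2 matches of it stood in 18 (52.9%) against 11.7%. TTTGAA was found in 24 member windows (70.6%) against 17.9% of all, and TTTAAA in 8 (23.5%) against 13.2%. A CCAAT together with TTTGAA or TTTAAA was present in 23 (67.6%) against 10.7% of all windows and 7.93% of the 11551 expressed genes that had a window. The matches of Ube2c included CCAAT on both strands over shared bases, and in Cdca8 a CCAAT and a TTTGAA shared 1 base. Mad2l1, Pttg1, Nuf2 and Ncaph had none of these letters in the window, which says only that they are not in that stretch. For Pttg1, 195 of the 250 bases before the start lay in annotated exons of the gene itself. Other windows overlapped exons too, and for Nek2 and Prc1 all 250 such bases were exonic, counting exons of any gene. The first 30 bases after the start were found in a transcript of the gene for 24 of the 34 windows.

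**Figure D1:**
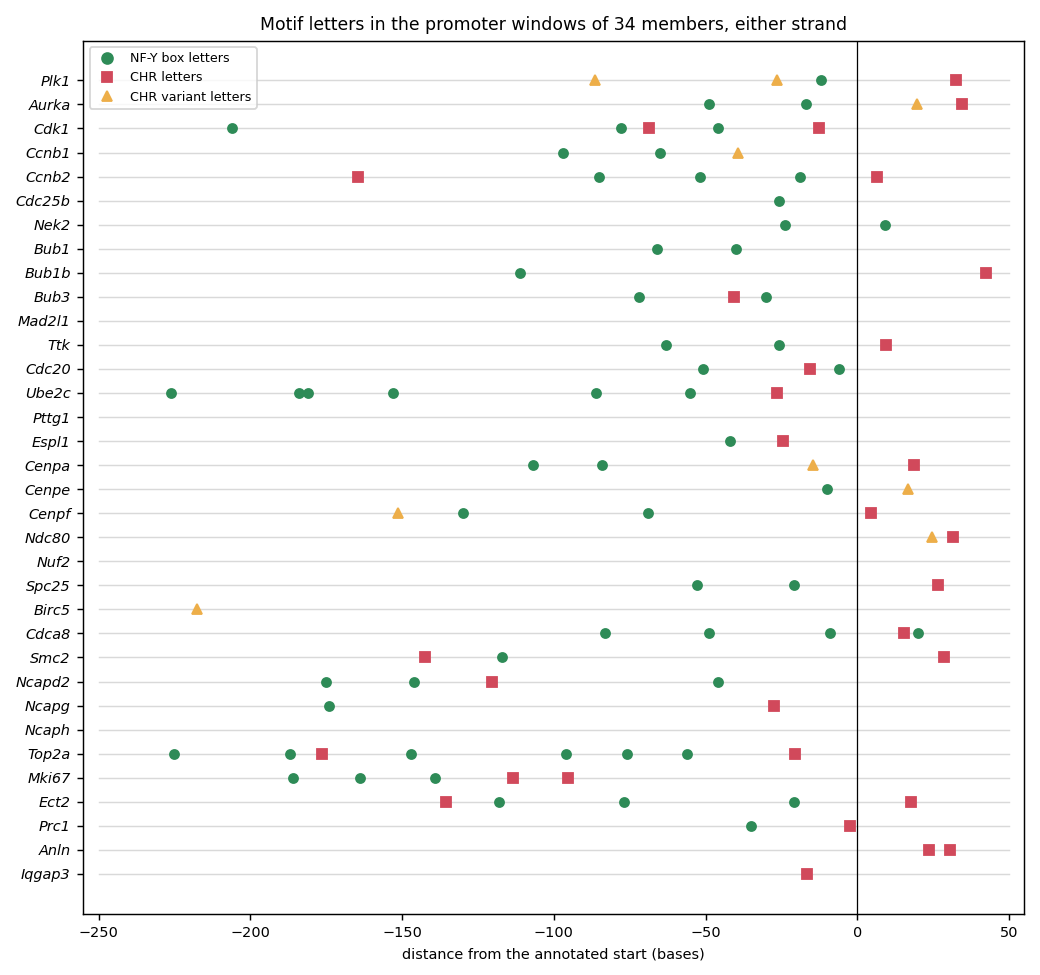
Positions of CCAAT, of TTTGAA and of TTTAAA on either strand in the promoter windows of the 34 members with a RefSeq window; the x axis is the distance in bases from the annotated start site and each row is 1 gene. CCAAT was found in 26 of the 34 windows and TTTGAA in 24.

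With baicalin, 41 of 42 members lay below their DMSO level in each pair of libraries, all but Pttg1. Of the 17787 expressed genes, 8728 lay below it in the basal-labelled pair and 9670 in the luminal-labelled pair. The drop of the members was deeper under the basal label, where a median of 17.02% was left against 55.02% under the luminal label. Percentages left, ratios and fold values of single members are plain FPKM ratios. They lack the 1 FPKM added for the log2 changes and do not convert into them. Changes are given as log2((baicalin + 1)/(DMSO + 1)) in FPKM, and a gene is called lower or higher when this passes 1 in size. In the basal-labelled pair 40 of 42 members were lower by more than 1, where 3.33% of the 17787 expressed genes were, and none was higher, where 2.15% of all genes were. The median change of the members was -2.07 against 0.01 over all expressed genes. In the luminal-labelled pair 8 of 42 were lower by more than 1, against 1.59% of all genes, and none was higher, against 2.37%; the median was -0.76 against -0.02. With median-ratio scaling the 8 became 5. As a sum, the fragments of the members made up 0.391% of all fragments under DMSO and 0.0740% under baicalin in the basal-labelled libraries, and 0.402% and 0.213% in the luminal-labelled libraries. The members were thus at nearly the same summed level in both DMSO libraries, 5.28-fold lower with baicalin under the basal label and 1.88-fold lower under the luminal label.

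**Figure D2:**
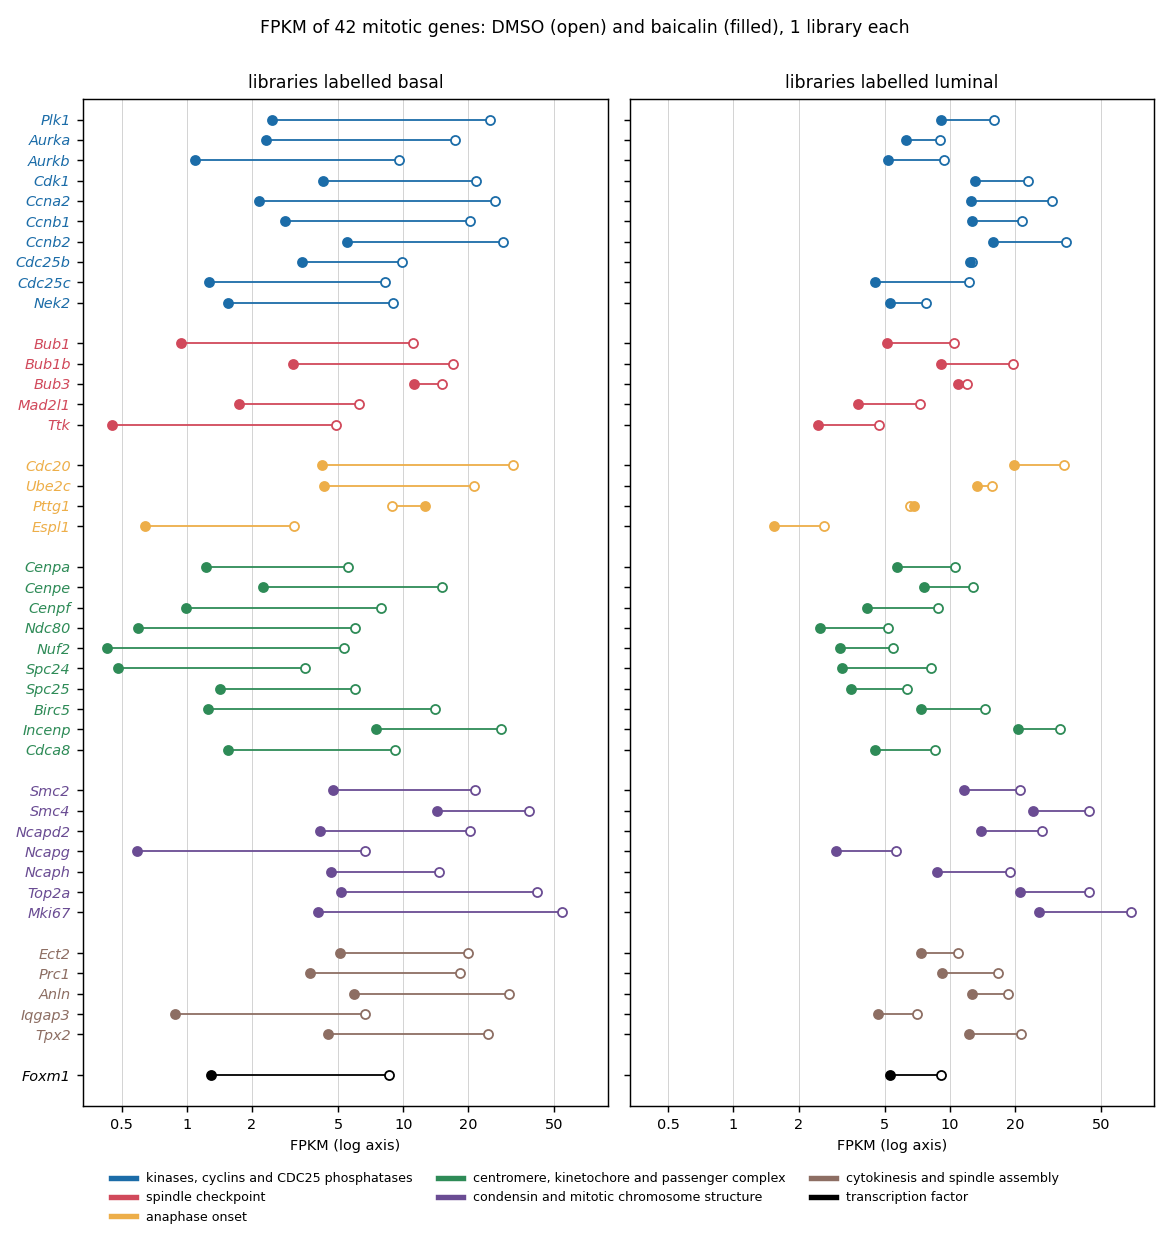
FPKM of each member in the 4 libraries on a log axis, grouped by role; each point is 1 library. In the basal-labelled baicalin library most members lie far below the other 3 libraries, while Pttg1 and Bub3 do not.

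The other changes between these libraries are given beside this result. The basal markers summed to 1761 FPKM under DMSO and 479 under baicalin in the basal-labelled pair, and to 5404 and 7199 in the luminal-labelled pair, with 9 and 5 of the 10 markers lower with baicalin. Keratins made up most of these sums, with Krt14 at 1494 and 417 FPKM in the basal-labelled pair and 2308 and 3132 in the luminal-labelled pair. Acta2, Cnn1, Tagln, Mylk and Oxtr were the markers lower with baicalin under the luminal label, although the sum rose there. The luminal markers summed to 4369 and 2834 FPKM and to 1393 and 1105 FPKM in the same order, with 7 and 8 of 10 lower. Of the cells that the gate should remove, the 7 immune markers summed to between 5.93 and 54.1 FPKM, highest in the basal-labelled baicalin library, where Ptprc, Cd3e and Adgre1 were among the markers listed at 0. That sum was nearly all Cd68, a lysosomal protein of macrophages, at 7.49, 51.5, 4.44 and 13.7 FPKM in basal DMSO, basal baicalin, luminal DMSO and luminal baicalin, while Lyz2, a lysozyme of myeloid cells, was at 8.84, 2.17, 0.903 and 2.61. The 7 fibroblast markers summed to between 3.07 and 11.2 FPKM and the 5 endothelial markers to between 0.874 and 3.31 FPKM, with no marker of either list at 0. These marker sums thus also differed between baicalin and DMSO, and their part in the result was not tested.

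Among the kinases, cyclins and CDC25 phosphatases, all 10 were lower by more than 1 with baicalin in the basal-labelled pair, against 3.33% of all genes. In the luminal-labelled pair 3 of 10 were, against 1.59%. Plk1, the polo-like kinase that acts from mitotic entry to cytokinesis, was at 25.1 FPKM in basal DMSO, 2.47 in basal baicalin, 16.1 in luminal DMSO and 9.12 in luminal baicalin. Aurka, the Aurora kinase of the centrosome and spindle poles, was at 17.3, 2.32, 8.98 and 6.30 FPKM in the same order, which is kept for all values of 4 libraries below. Both kinases were lowest in the basal-labelled baicalin library and were higher in the basal-labelled than in the luminal-labelled DMSO library. For Plk1 the change was -2.91 in the basal-labelled pair and -0.75 in the luminal-labelled pair. This was the widest gap between the 2 log2 changes of any member (2.16). Without the added 1 FPKM the gap was wider for Nuf2, left at 8.0% and 57.1% of DMSO, against 9.8% and 56.7% for Plk1.

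Cdk1, the kinase whose activity defines mitosis, was at 21.8, 4.28, 23.1 and 13.1 FPKM, so 19.6% of its DMSO level was left under the basal label and 56.8% under the luminal label. Of its cyclin partners, Ccna2 (cyclin A2) was at 26.5, 2.15, 29.8 and 12.5 FPKM, Ccnb1 at 20.3, 2.83, 21.5 and 12.7, and Ccnb2 at 28.8, 5.51, 34.4 and 15.8. Ccnb2 had the highest level of the 4 genes in every library, and Ccna2, above Ccnb1 in both DMSO libraries, was below it in basal baicalin and about level with it in luminal baicalin. Ccna2 was 12.3-fold lower in the basal-labelled pair and 2.38-fold lower in the luminal-labelled pair. Ccnb2, whose CCAAT-rich window is shown above, was called lower in both pairs (-2.20 and -1.07). Ncaph, with none of the searched letters in its window, was too. A link between promoter letters and change was not tested.

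The CDC25 phosphatases, which remove the inhibitory phosphates from CDK1, differed from each other in the luminal-labelled pair. Cdc25c was at 8.23, 1.27, 12.2 and 4.52 FPKM and was left at 36.9% of DMSO there, the lowest of any member. Cdc25b was at 9.85, 3.40, 12.7 and 12.5 FPKM and was left at 98.4%, with a 95% counting interval of 89.7% to 108%. Under the basal label both were called lower, Cdc25b with the smallest log2 change among the 40 (-1.30). Nek2, a centrosome kinase, was at 9.01, 1.55, 7.77 and 5.30 FPKM, and Aurkb, the kinase of the passenger complex, at 9.54, 1.09, 9.42 and 5.16.

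Of the 5 spindle checkpoint genes, 4 were called lower in the basal-labelled pair, against 3.33% of all genes. In the luminal-labelled pair 1 was (Bub1b), against 1.59%. Bub1, the kinetochore kinase that recruits other checkpoint proteins, was at 11.1, 0.940, 10.4 and 5.11 FPKM, 11.8-fold lower with baicalin under the basal label. Bub1b (BubR1), part of the complex that inhibits CDC20, was at 17.1, 3.09, 19.5 and 9.09 FPKM. Ttk (Mps1), the kinase that starts checkpoint signalling, was at 4.89, 0.451, 4.69 and 2.45 FPKM. Mad2l1, which binds CDC20 directly, was at 6.27, 1.73, 7.28 and 3.78 FPKM. These 4 were lowest in the basal-labelled baicalin library and next lowest in the luminal-labelled baicalin library.

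Bub3 did not follow them. This adaptor, which carries BUB1 and BUBR1 to the kinetochore, was at 15.1, 11.3, 12.02 and 11.0 FPKM, a change of -0.39 under the basal label and -0.12 under the luminal label. Its baicalin to DMSO ratio was 0.745 in the basal-labelled pair (95% counting interval 0.698 to 0.795) and 0.912 in the luminal-labelled pair (0.8501 to 0.977). These exact intervals, here and below, cover counting error only and say nothing of the spread between cultures. Bub1b was the highest of the 5 checkpoint genes in both DMSO libraries and Bub3 was the highest in both baicalin libraries. The range between the highest and the lowest of the 5 (Ttk in each library) went from 3.49-fold in basal DMSO to 25-fold in basal baicalin, and from 4.16-fold to 4.47-fold under the luminal label. Bub3 lay among the 34 members with a promoter window and held 2 CCAAT and 1 TTTGAA there.

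The anaphase genes held the only member that was higher with baicalin by sign in both pairs. Pttg1 (securin), the inhibitor that keeps separase inactive until anaphase, was at 8.89, 12.5, 6.56 and 6.80 FPKM. Its ratio was 1.41 in the basal-labelled pair, with a counting interval of 1.23 to 1.62, and 1.04 in the luminal-labelled pair, with an interval of 0.872 to 1.23 that includes 1. On the log2 scale these were changes of 0.45 and 0.05, short of the threshold. Espl1 (separase), the protease that securin holds, was at 3.12, 0.642, 2.63 and 1.54 FPKM, a change of -1.33 under the basal label, opposite in sign to that of its inhibitor. Cdc20, which activates the anaphase-promoting complex to degrade securin, was at 32.2, 4.20, 33.9 and 19.8 FPKM. Ube2c, a ubiquitin-conjugating enzyme of that complex, was at 21.3, 4.29, 15.6 and 13.4 FPKM and was left at 85.5% in the luminal-labelled pair. From the 29th highest of the 42 members in basal DMSO, Pttg1 became the 2nd highest in basal baicalin.

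All 10 centromere, kinetochore and passenger complex genes were called lower in the basal-labelled pair, against 3.33% of all genes. A median of 14.2% of their DMSO level was left there. Under the luminal label 1 (Spc24) was called lower, against 1.59% of all genes, and a median of 53.5% was left. Cenpa, the histone H3 variant that marks the centromere, was at 5.55, 1.22, 10.6 and 5.72 FPKM. Cenpe, the kinetochore motor whose promoter is shown above, was at 15.1, 2.24, 12.8 and 7.63 FPKM. Cenpf, a large kinetochore protein, was at 7.88, 0.987, 8.83 and 4.15 FPKM. Cenpa was the one of these 3 that differed most between the DMSO libraries, 1.90-fold higher under the luminal label.

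The NDC80 complex, the 4-part rod that grips microtubules, summed to 20.8, 2.92, 25.2 and 12.3 FPKM. Ndc80 itself was at 5.98, 0.592, 5.16 and 2.52 FPKM and its partner Nuf2 at 5.31, 0.428, 5.46 and 3.12. The other 2 subunits were at 3.50, 0.479, 8.19 and 3.16 FPKM for Spc24 and at 5.97, 1.42, 6.37 and 3.49 for Spc25. The 4 subunits lay within 1.71-fold of each other in basal DMSO, 1.59-fold in luminal DMSO and 1.39-fold in luminal baicalin, but spread to 3.33-fold in basal baicalin. In that library Nuf2 was the lowest of all 42 members, 12.4-fold under its DMSO level, while Spc25 was 4.20-fold under it.

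The chromosomal passenger complex, which corrects faulty attachments, summed to 61.1, 11.3, 65.1 and 37.7 FPKM. Its scaffold Incenp was the highest of the 4 subunits in every library, at 28.3, 7.46, 32.5 and 20.6 FPKM. Birc5 (survivin) was at 14.1, 1.25, 14.6 and 7.37 FPKM and Cdca8 (borealin) at 9.16, 1.54, 8.53 and 4.50. Under the basal label Incenp was 3.80-fold lower with baicalin, Cdca8 5.93-fold, Aurkb 8.77-fold and Birc5 11.3-fold. Under the luminal label the 4 lay closer together, from 1.57-fold lower for Incenp to 1.98-fold for Birc5.

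The 7 genes of condensin and chromosome structure were all called lower in the basal-labelled pair, against 3.33% of all genes. Ncaph, Top2a and Mki67 were also called lower in the luminal-labelled pair, against 1.59%. Mki67, the chromosome surface protein known as the Ki-67 antigen, was at 54.0, 4.06, 68.6 and 25.9 FPKM. It was the highest member in every library but basal baicalin, where it ranked 16th, and its change of -3.44 under the basal label was the largest in the set. Without Mki67 the summed fragments of the members were 66814 and 14183 under the basal label and 64371 and 38664 under the luminal label, in libraries of near equal depth. Top2a, the topoisomerase that untangles sister chromatids, was at 41.7, 5.17, 43.9 and 21.1 FPKM.

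Condensin I, the ring that compacts chromosomes, was uneven among its subunits. Its ATPase subunit Smc4 was at 38.1, 14.4, 44.2 and 24.3 FPKM and the other ATPase, Smc2, at 21.4, 4.75, 21.2 and 11.7. Of the regulatory subunits, Ncapd2 was at 20.3, 4.12, 26.7 and 13.9 FPKM, Ncaph at 14.6, 4.64, 19.0 and 8.75, and Ncapg at 6.64, 0.586, 5.67 and 2.98. Smc4 was the highest and Ncapg the lowest in each library, and the ratio between them was 5.73 in basal DMSO, 24.5 in basal baicalin, 7.79 in luminal DMSO and 8.15 in luminal baicalin. With baicalin under the basal label, Smc4 was left at 37.7% and Ncapg at 8.82% of DMSO, while under the luminal label both were close to each other, at 54.9% and 52.5%.

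The 5 cytokinesis and spindle assembly genes were all called lower under the basal label, against 3.33% of all genes. None was under the luminal label, against 1.59%, and 55.6% (Prc1) to 68.3% (Anln) was left there. Anln (anillin), the scaffold of the contractile ring, was at 31.0, 5.90, 18.5 and 12.6 FPKM. Ect2, which activates RhoA at the division plane, was at 19.96, 5.12, 11.0 and 7.40 FPKM. Prc1, the bundler of midzone microtubules, was at 18.3, 3.70, 16.6 and 9.24 FPKM. Iqgap3 was at 6.63, 0.884, 7.09 and 4.65 FPKM, and Tpx2, which activates Aurora A on the spindle, at 24.7, 4.48, 21.4 and 12.3. Foxm1, the transcription factor of many late cell cycle genes, was at 8.55, 1.29, 9.10 and 5.29 FPKM, a change of -2.06 and -0.68.

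The difference between the 2 baicalin changes was then taken gene by gene. The change was less negative under the luminal label for 41 of 42 members, all but Pttg1, with a median difference of 1.31. Over all expressed genes 45.2% had the less negative change there, and the median difference was -0.03. The difference passed 1 in 32 members, against 4.41% of all genes. With the added 1 FPKM it was largest for Plk1, Mki67 (2.07) and Aurka (2.01). By role the median difference ran from 1.12 for the checkpoint genes to 1.54 for the kinases and cyclins. Across the 42 members the 2 changes, which share no library, had a Spearman rho of 0.33 and a Pearson r of 0.61, and across the 17787 genes 0.29 and 0.32; genes are not independent replicates. The size of the fall in one pair of libraries thus ordered the members only loosely in the other.

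**Figure D3:**
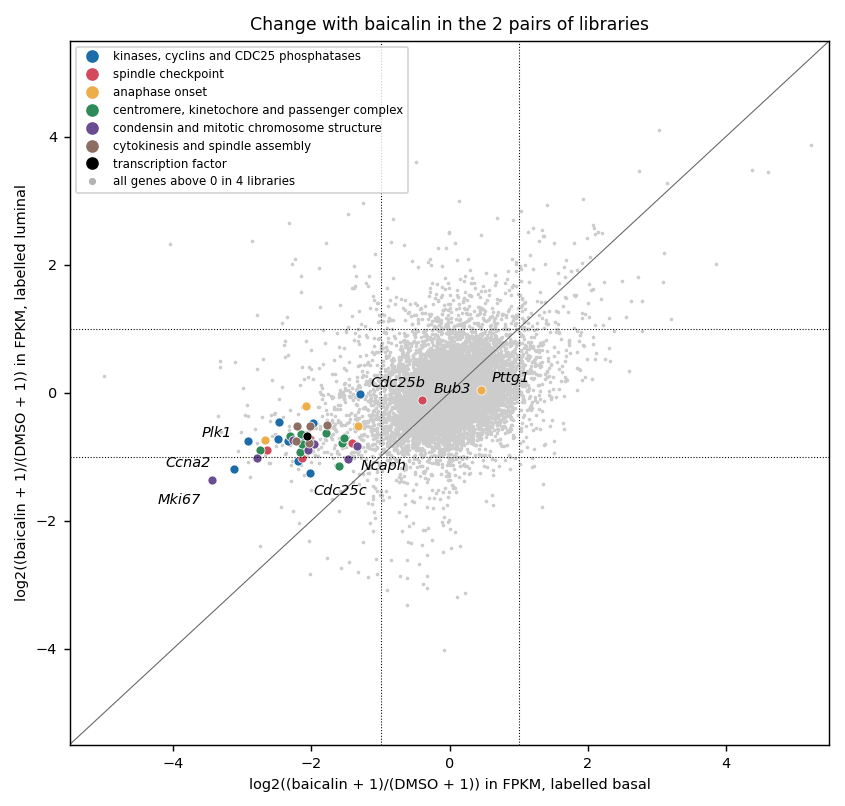
Change with baicalin, log2((baicalin + 1)/(DMSO + 1)) in FPKM, in the basal-labelled pair (x axis) and the luminal-labelled pair (y axis) for the 42 members, coloured by role, over all 17787 expressed genes in grey; dotted lines mark the threshold of 1 and the diagonal marks equal change. Of the members, 41 lie above the diagonal and Pttg1 lies below it.

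Between the DMSO libraries the set was near even. Of 42 members, 1 (Spc24) was higher by more than 1 in the luminal-labelled library, against 4.71% of all genes, and none was lower, against 3.86%. By sign 23 members lay above and 19 below their basal-labelled level (median 0.06). Of all expressed genes 9340 lay above and 8447 below (median 0.01). With FPKM rescaled to a common total (TPM) the split of the members was 14 above and 28 below (median -0.05). Spc24 was 2.34-fold higher under the luminal label (counting interval 1.96 to 2.80), followed by Cenpa and by Cdc25c at 1.49-fold. Aurka, Ect2 and Anln lay at the other end, with 51.8%, 54.9% and 59.8% of their basal-labelled level.

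Between the baicalin libraries, which are the same libraries as in the comparisons above, 33 members were higher by more than 1 under the luminal label, against 5.24% of all genes, and none was lower, against 2.99%. The median was 1.36, and the middle member stood at 341% of its basal-labelled level. The ratio was highest for Nuf2 (7.29), Spc24 (6.60) and Mki67 (6.38), and on the log2 scale for Mki67 (2.41), Ccna2 (2.10) and Cdc20 (2.0). Bub3 had a ratio of 0.972, with an interval of 0.906 to 1.04 that includes 1. Pttg1 alone was lower beyond its counting interval, at 54.2% (46.7% to 62.9%). The genes on each side of the threshold were Cdca8 at 1.11 and Anln at 0.98.

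**Figure D4:**
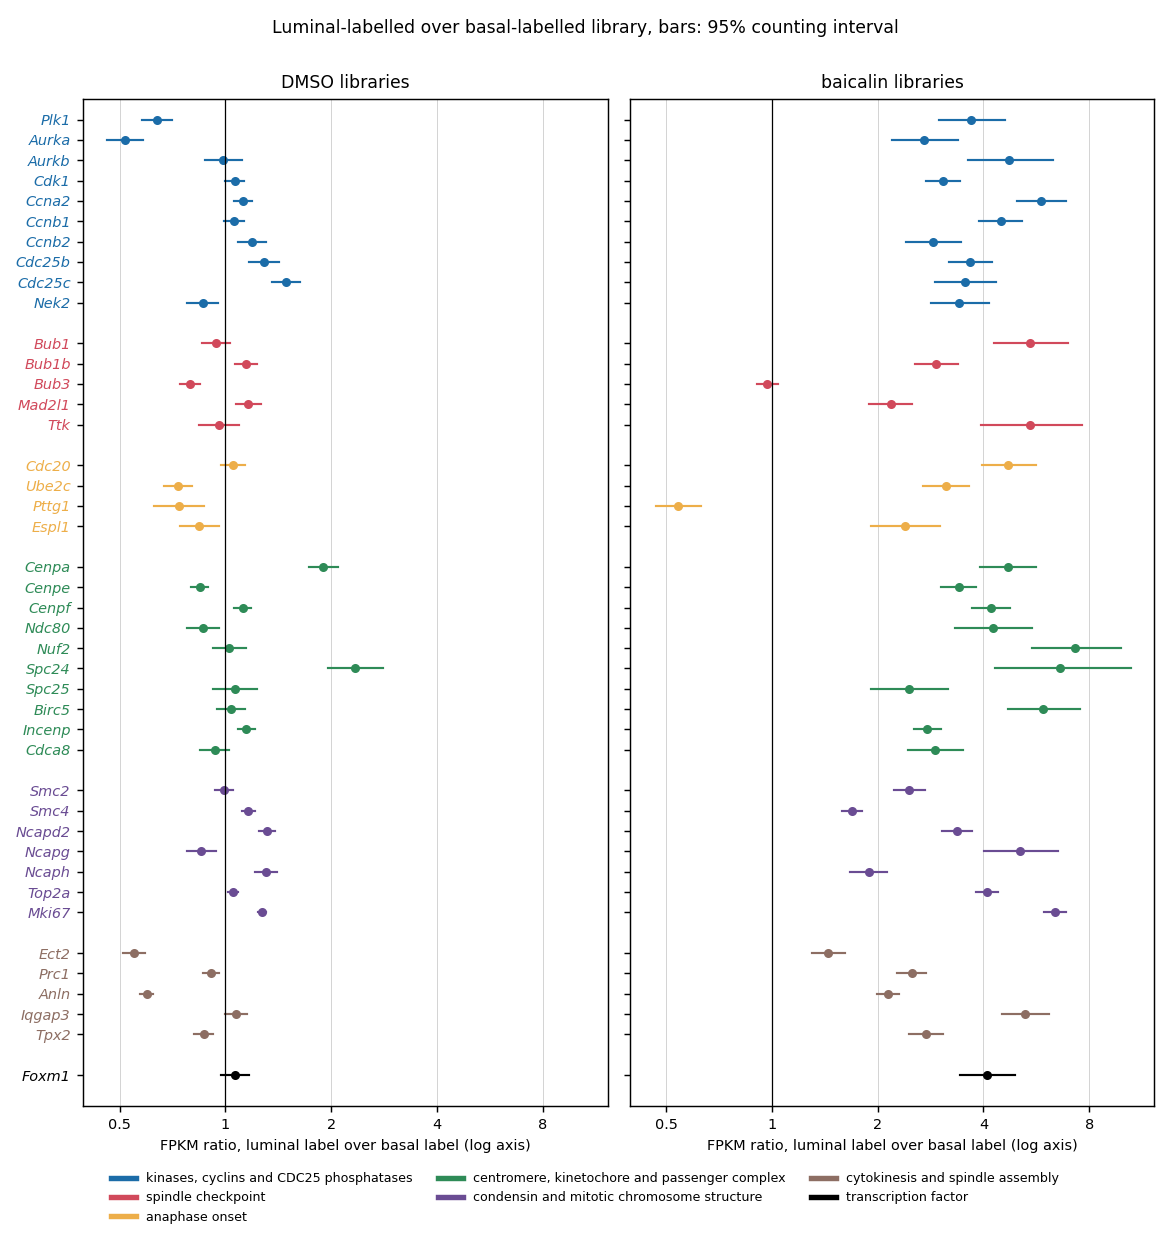
Ratio of the luminal-labelled to the basal-labelled FPKM of each member under DMSO and under baicalin on a log axis, with 95% exact counting intervals. Under DMSO the ratios run from 51.8% to 234% and under baicalin from 54.2% (Pttg1) to 729% (Nuf2), with 40 members whose interval lies above 1.

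A further 112 mitotic and related genes in 8 lists changed less than the 42. The lists are not complete, and they and the members were chosen with earlier results of these data known. The contrast is therefore a description only. In the basal-labelled pair 40 of the 112 were lower by more than 1 and none higher, with a median of -0.68; this was 35.7% of them, against 3.33% of all genes. In the luminal-labelled pair 1 was lower by more than 1 (Racgap1) and none higher, with a median of -0.40. This 0.893% was near the 1.59% of all genes. By sign, 92 of the 112 lay below DMSO in the basal-labelled pair, against 8728 of 17787 expressed genes. In the luminal-labelled pair 103 did, against 9670. Under the basal label the lists most often called lower were the spindle and cytokinesis genes (9 of 15) and the checkpoint genes (4 of 7). The centromere and kinetochore genes followed (12 of 27). Hmmr, a spindle assembly factor, was at 13.6, 1.46, 11.2 and 6.68 FPKM, and Racgap1, the partner of Ect2 at the midzone, was at 12.7, 1.98, 17.2 and 7.78. Knl1, the kinetochore scaffold that BUB proteins dock on, was at 5.53, 0.508, 4.32 and 2.43 FPKM, and Ska1, which binds NDC80 on microtubules, at 3.59, 0.222, 3.74 and 1.38. Kntc1, of the ROD complex that feeds the checkpoint, was at 5.97, 1.0, 6.11 and 3.29 FPKM. These named genes were lowest in basal baicalin, as most members were. In the centromere and kinetochore list, 26 of 27 genes lay below DMSO under the basal label and 24 under the luminal label. Zwint of that list was higher with baicalin in both pairs, at 33.9, 46.9, 22.0 and 31.5 FPKM.

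The remaining 5 lists held lower shares of calls. Of 17 anaphase-promoting complex genes 1 (5.88%) was called lower under the basal label, near the 3.33% of all genes, with a median of -0.18, and it was Fbxo5 (Emi1), an inhibitor of the complex, at 6.81, 2.49, 7.69 and 3.77 FPKM. Of 16 cohesin genes 4 were called lower, among them Esco2, which acetylates cohesin in S phase, at 7.36, 1.08, 6.74 and 3.05 FPKM. Of 3 condensin II genes 1 was, Ncapg2, at 6.84, 1.59, 8.02 and 4.53 FPKM. Of 13 mitotic entry genes 5 were, with Mastl (Greatwall), the kinase that restrains the phosphatase opposing CDK1, at 6.58, 1.35, 5.77 and 3.69 FPKM. Wee1, which puts on the phosphates that CDC25 removes, was at 9.05, 10.1, 15.5 and 8.61 FPKM and so was not lower under the basal label. Of 14 genes of the MuvB, MYB and E2F-pocket protein system 4 were called lower, with Mybl2 (B-MYB), a partner of MuvB, at 6.01, 0.905, 6.88 and 4.30 FPKM and E2f8 at 3.88, 0.489, 6.99 and 4.02.

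**Figure D5:**
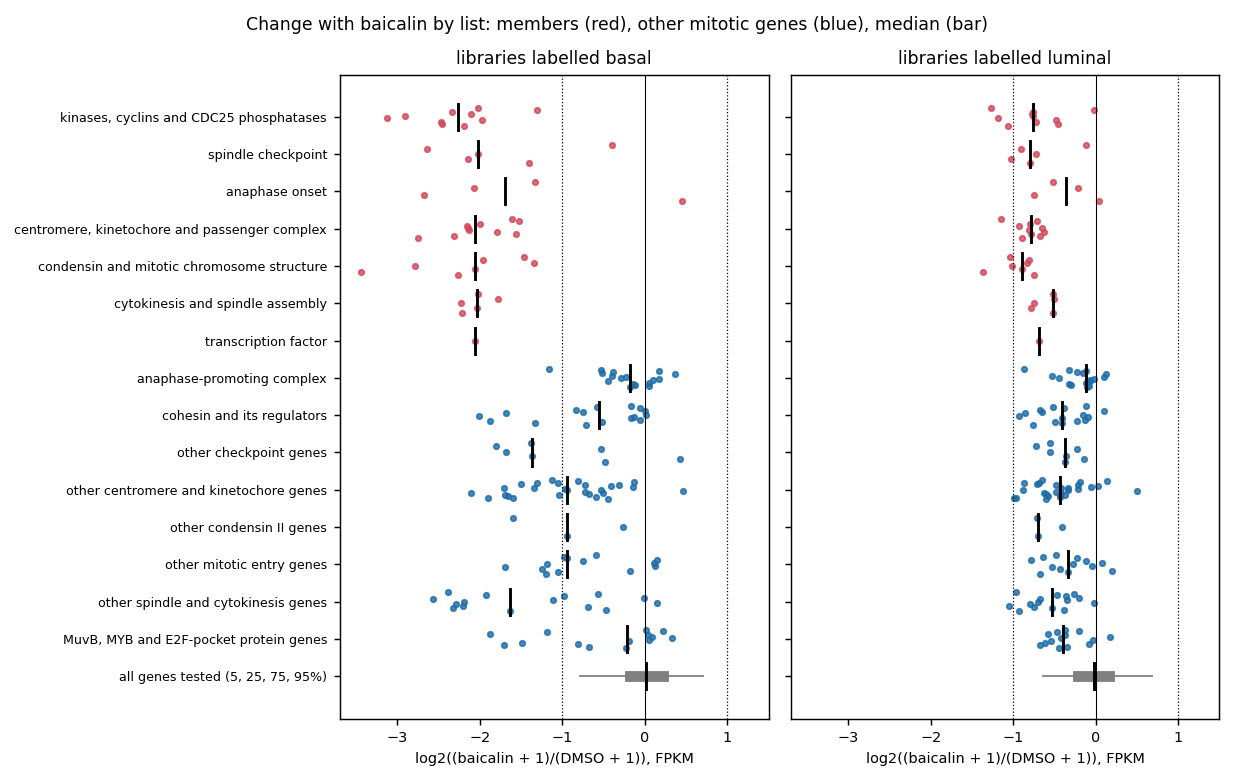
Change with baicalin in the basal-labelled and the luminal-labelled pair for each role of the members and each list of other mitotic genes; points are genes, bars are medians, and the x axis is log2((baicalin + 1)/(DMSO + 1)) in FPKM. The 17 anaphase-promoting complex genes centre on -0.18 under the basal label, the 10 kinase, cyclin and CDC25 members on -2.27.

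Some member values share sequence or exons with other genes. Ccnb1 shares up to 18.9% of its 50-base words with a pseudogene (Ccnb1-ps), Cdc20 10.3% with Gm7856 and Plk1 6.56% with Plk-ps1, and the highest level of such a pseudogene in any library was 0.900 FPKM. On the opposite strand, 22.8% of the exon bases of Ube2c overlap Tnnc2, 13.4% of Ncapg overlap Lcorl and 12.5% of Ccna2 overlap Exosc9; the library kit keeps strand, but whether counting used it is not given in the sources used here. Exosc9 was at 11.7, 10.01, 10.7 and 9.90 FPKM, a range much narrower than that of Ccna2.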

How the data were processed

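Libraries were made from oligo(dT)-selected mRNA with a stranded kit. Per its methods the study aligned reads with HISAT2 to GRCm38 and counted fragments per gene with featureCounts, while the submitters' processing notes also name Bowtie 0.12.2 and mm8 without a role. The authors deposited 1 table of FPKM values, 1 column per library. Each group had 1 library, so no tests were run.

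Fragments were recovered from the FPKM values with GENCODE M21 exon lengths: among genes of up to 50 fragments, 98.7% to 98.9% of values were whole within 0.1, as were 40 of 42 members in every library (not Cdc25c and Incenp). Genes above 0 FPKM in all 4 libraries were compared as log2 ratios with a pseudocount of 1 FPKM and a threshold of 1. Exact (Clopper-Pearson) 95% intervals of ratios cover counting error only. Motifs were searched as exact letters in RefSeq promoter windows. Named genes were all members by role, and of each other list the gene with the largest change in each baicalin comparison. Zwint was added as a gene that was higher with baicalin. The members and lists were chosen with earlier results of these data known. Alternatives were other pseudocounts, filters, thresholds and scalings. Analyses used Python 3.11.15, pandas 2.3.3 and SciPy 1.17.1. The value of 1 marker gene is not reported here.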

Additional observations from a re-analysis of the deposited data

How the results depend on the processing

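The 40 of 42 members lower with baicalin under the basal label were 40 under every other pseudocount, filter and scaling, where 1.17% to 11.5% of all genes were lower, and 27 with a threshold of 2, against 0.742%. Under the luminal label the 8 (1.59% of all genes) became 5 (1.39%) with median-ratio scaling, 0 (0.259%) with a threshold of 2, 9 (3.25%) on the TPM scale, 11 (5.13%) with a pseudocount of 0.1 and 11 (8.64%) with none, the percentage being the share of all genes lower under that setting. The median change under the basal label was -2.48 with a pseudocount of 0.1, -2.55 with none and -2.40 with TPM, and the median luminal against basal difference under baicalin was 1.73 and 1.77 with a pseudocount of 0.1 and none. With a threshold of 2, 2 members were higher under the luminal label with baicalin, against 1.36% of all genes. With DMSO 0 were, against 1.04%. With TPM, 1 member was lower under the luminal label with DMSO, against 7.19% of all genes. A smaller pseudocount by construction enlarges the changes of low genes; for the other changes the cause was not tested. Between the DMSO libraries the median went from 0.06 to -0.05 with TPM; the medians over all members in the other 3 comparisons kept their direction in every alternative. By sign, Cdc25b (luminal label) and Bub3 (between baicalin libraries) turned with median-ratio scaling, and 9 members between the DMSO libraries with TPM. No paired analysis was possible because each group has 1 library. Depth limits few members, but with 1 library per group the spread between cultures is unknown.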
